A study of Mus musculus with 11 samples.

Results

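The 10 genes described here were chosen by function, with earlier results of these data known. They are a list of metabolic regulators: Ppargc1a, Ppargc1b, Esrra, Esrrg, Ppara, Ppard, Pparg, Rxra, Rxrg and Tfam. They were 10 of the 15274 genes in a table of RNA sequencing of mouse hearts, taken from an injured or an uninjured region of strain C57BL/6J (B6) or strain C3H/HeJ (C3H). All 10 passed the filter on low counts, as did 14751 genes in all. The mice were aged 8 weeks, the sample titles name day 7, and the labels name no transgene, deletion or drug. There were 3 uninjured and 3 injured regions of B6 hearts, and 3 uninjured and 2 injured regions of C3H hearts, each labelled with its mouse. These came from 6 animals, of which 5 gave both regions. The sources used here do not give how the hearts were injured or where each region lay.

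PGC-1 proteins are coactivators: they bind to transcription factors and raise the transcription of genes for mitochondria and fuel oxidation. Their main partners in heart muscle are the oestrogen-related receptors (ERRs), which bind the genes of the respiratory chain and the tricarboxylic acid (TCA) cycle, and the peroxisome proliferator-activated receptors (PPARs), which bind fatty acid genes as heterodimers with a retinoid X receptor (RXR). Tfam, a product of a nuclear gene in the same network, packages mitochondrial DNA and starts its transcription. The adult heart is known for its high use of fatty acids and its high levels of these factors.

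Depth was 9699985 to 22138459 reads assigned to genes per library. The defining markers of heart muscle were present in every library: the summed normalised count of 13 cardiomyocyte markers was 1707000 to 2274000 in B6 uninjured regions and 1953000 to 2462000 in C3H uninjured regions. All B6 libraries had Xist at 3.14 to 12.2 normalised counts and the Y-linked gene Ddx3y at 1430 to 2220, while all C3H libraries had Xist at 1840 to 8480 and Ddx3y at 0.888 to 3.46. Strain and sex can therefore not be told apart in any comparison between the strains. In bulk tissue, fewer cells of a type and less RNA per cell cannot be told apart either.

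The promoter sequences of the genes on which the results turn are shown first, because these factors bind short DNA motifs and several of the genes are known members of the network they regulate. RefSeq (GRCm38.p6) gave 16 windows of 250 bases before a transcription start for 9 of the 10 genes, with a GC content of 40.8% to 82.4%. Esrra and Rxrg, which had the largest falls with injury in C3H, are shown whole, Rxrg at both of its starts, together with Ppargc1a. For Tfam and Ppara only the stretch around a motif match is shown. Each sequence is in the gene's own direction, 5′ to 3′, and capitals mark motif matches on either strand.
Esrra, chr19:6921809-6922058, minus strand: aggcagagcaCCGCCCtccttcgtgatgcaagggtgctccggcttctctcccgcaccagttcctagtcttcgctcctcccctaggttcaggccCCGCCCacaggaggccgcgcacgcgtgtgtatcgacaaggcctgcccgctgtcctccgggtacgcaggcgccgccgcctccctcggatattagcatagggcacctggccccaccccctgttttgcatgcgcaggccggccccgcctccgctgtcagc
Rxrg, upstream start, chr1:167598112-167598361, plus strand: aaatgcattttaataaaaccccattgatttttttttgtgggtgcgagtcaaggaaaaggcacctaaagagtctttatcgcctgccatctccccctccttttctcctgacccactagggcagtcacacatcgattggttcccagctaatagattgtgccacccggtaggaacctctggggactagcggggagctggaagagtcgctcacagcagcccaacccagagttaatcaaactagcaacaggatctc
Rxrg, downstream start, chr1:167618015-167618264, plus strand: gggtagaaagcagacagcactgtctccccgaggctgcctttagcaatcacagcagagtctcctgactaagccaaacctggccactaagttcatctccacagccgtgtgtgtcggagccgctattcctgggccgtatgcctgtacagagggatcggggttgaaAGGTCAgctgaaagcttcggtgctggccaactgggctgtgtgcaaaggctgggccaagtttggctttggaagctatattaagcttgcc
Ppargc1a, chr5:51567726-51567975, minus strand: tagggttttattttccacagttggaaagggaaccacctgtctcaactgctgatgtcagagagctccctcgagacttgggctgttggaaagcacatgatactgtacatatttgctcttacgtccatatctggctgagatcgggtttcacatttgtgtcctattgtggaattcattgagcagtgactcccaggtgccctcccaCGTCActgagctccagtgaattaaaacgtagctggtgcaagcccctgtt
Tfam site, chr10:71238076-71238099, minus strand: gccgcggaCCGGAAGTccgggctt
Ppara site, chr15:85735737-85735762, plus strand: gctcggtgGCGCATGCGCgcggacta

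The capitals in Esrra are a pair of GC boxes (GGGCGG, here on the opposite strand), 240 to 235 and 157 to 152 bases before the start. Those in the downstream Rxrg window are an AGGTCA, the core that nuclear receptors bind, 88 bases before the start at its first base. The upstream Rxrg window held none of the motifs searched. Ppargc1a had the short cyclic AMP motif TGACG on the opposite strand, 49 to 45 bases before its start. The Tfam capitals are the ETS motif CCGGAAGT, which the factor GABP binds, 47 to 40 bases before the start, and those of Ppara are the motif of the factor NRF1 (GCGCA, any base, then GCGC), 31 to 22 bases before it. The ETS motif was in 2.88% of all 32851 windows of this length and the NRF1 motif in 3.74%, and each was in 1 of the 16 windows of these genes. AGGTCA was in 4 of the 16 and in 14.0% of all windows, and the GC box in 9 of the 16 and in 32.7% of all. TGACG, a part of the full motif TGACGTCA, was in 2 of the 16 and in 17.8% of all. The full TGACGTCA, the ERR motif TNAAGGTCA and the PPAR and RXR motif (AGGTCA, any base, then AGGTCA again) were in 0 of the 16, and in 1.55%, 1.14% and 0.0335% of all windows. Both of the last contain AGGTCA and overlap its matches. All motifs were searched on both strands.

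Per kilobase of exon, Esrra, an orphan receptor, had the highest level in every group. In B6 uninjured regions its mean was 922 ± 65.3 normalised counts per kb (SD, n = 3), followed by Rxrg at 696 ± 120 per kb. Tfam at 301 ± 106, Ppargc1a at 272 ± 76.4, Ppara at 244 ± 147 and Rxra at 239 ± 81.8 per kb came next, and these neighbours did not differ beyond their spread. Ppard stood at 183 ± 42.1, Esrrg at 146 ± 54.1 and Pparg at 114 ± 35.4 per kb, with Ppargc1b lowest at 51.2 ± 32.4. The order differed in C3H injured regions (n = 2). There Esrra was at 465 ± 89.3 and Rxra at 303 ± 49.7 per kb, while Rxrg was at 189 ± 22.6 and Tfam at 117 ± 29.1. Esrrg, at 94.0 ± 10.5 per kb, was below Pparg at 149 ± 25.6, in contrast to the order of their means in the other groups.

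Injury in C3H went with lower levels of 4 of the 10 regulators: both ERRs, Rxrg and Tfam. The falls, as log2 fold changes of the normalised count with a pseudocount of 1, were from -1.84 for Rxrg to -0.98 for Esrrg. None of the 10 rose past the threshold, while 15.3% of all genes did. Across all genes tested, 15.4% fell and 30.7% changed in either direction in the same comparison, so 4 of 10 is to be read against a large background. The median change of the 10 was -0.77, against 0.01 over all genes. In B6 none of the 10 passed the threshold, where 0.0136% of all genes did, and their median change was -0.33 against 0.01. At an unadjusted p under 0.05 there were 2 of the 10 in B6 and 1979 of all genes.

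**Figure D1:**
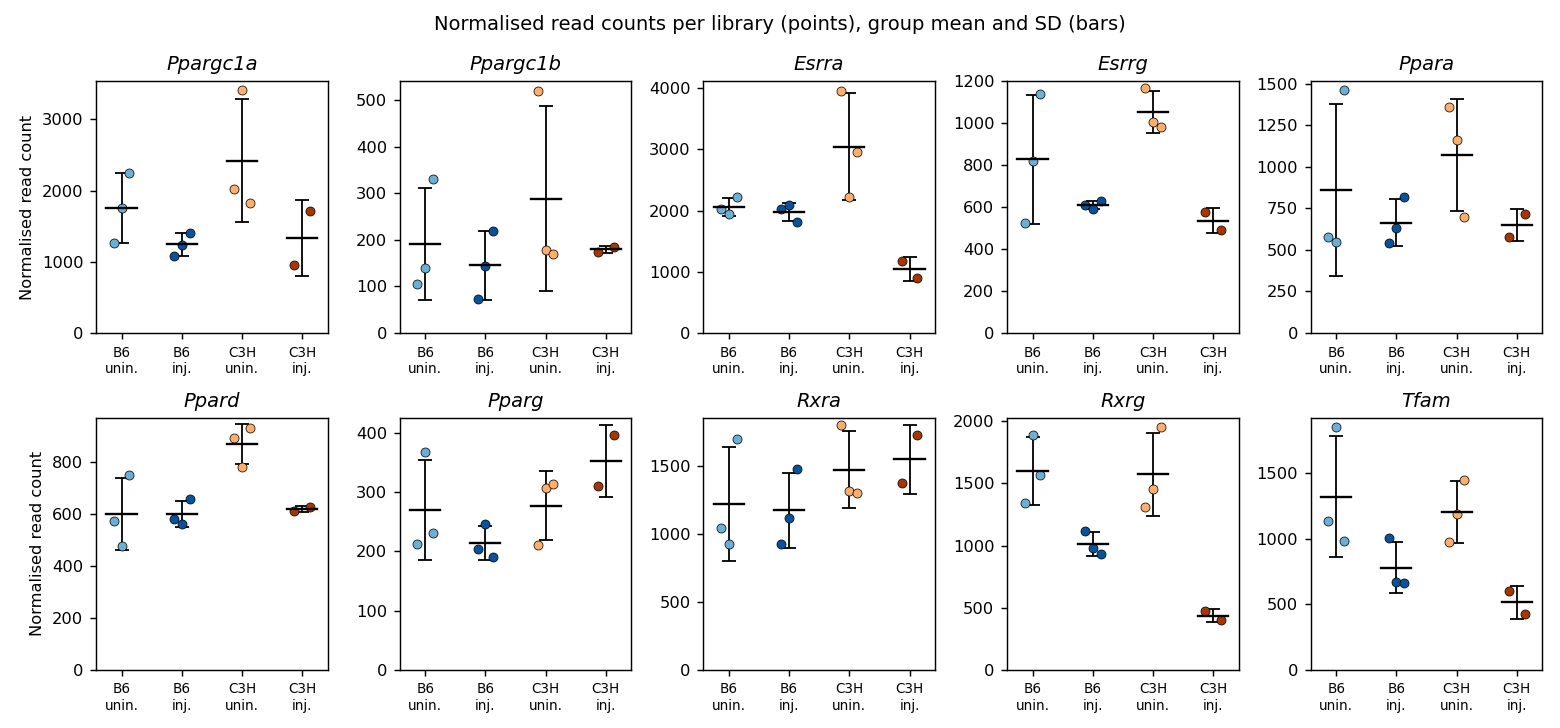
Normalised counts (vertical axis, linear and from 0) of the 10 regulator genes in each library, with a panel for each gene and the groups B6 and C3H, uninjured (unin.) and injured (inj.), along the horizontal axis; points are libraries and bars are the group mean and SD. Rxrg in C3H injured regions (470.4 and 397.1) lay below all other libraries.

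Among the coactivators, Ppargc1a, which encodes PGC-1alpha, had counts of 2021, 3408 and 1830 in C3H uninjured libraries and of 955.5 and 1709 in injured ones. The groups did not overlap, and both C3H animals with a pair of regions were lower in the injured one, by 1.00 to 1.08 log2 units. The change of -0.86 (SE 0.34) missed the threshold with limma's adjusted p = 0.0703. With the animal as a block it passed, at -1.04 with limma adjusted p = 0.00328 as a fixed term and at -0.93 with adjusted p = 0.0100 as a random effect. The fixed term uses only the C3H animals with both regions for this change. In B6 the counts were 1265, 1759 and 2252 uninjured and 1087, 1243 and 1411 injured. These groups overlapped although the injured region was lower in 3 of 3 animals, and the change was -0.46 (SE 0.30, limma adjusted p = 0.489).

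Ppargc1b, which encodes the related coactivator PGC-1beta, was the least even of the 10 between libraries. Its counts in C3H were 518.9, 178.0 and 169.6 uninjured and 174.7 and 184.4 injured, so that 1 uninjured library stood far above the rest. In B6 they were 105.3, 138.9 and 329.9 uninjured and 72.57, 143.8 and 220.1 injured. Neither strain's change passed the threshold: -0.48 (SE 0.59, limma adjusted p = 0.568) in C3H and -0.35 (SE 0.53, adjusted p = 0.778) in B6.

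Of the ERRs, Esrra (ERRalpha) had counts of 3962, 2219 and 2959 in C3H uninjured libraries and of 1185 and 901.7 in injured ones. The injured libraries were below all 9 others of the study. The fall was -1.52 (SE 0.25, limma adjusted p = 0.00112), and 2 of 2 animals showed it, at -1.74 and -1.30. In B6 the counts overlapped, at 2020, 1949 and 2231 uninjured and at 2032, 2087 and 1814 injured. The B6 change was -0.06 (SE 0.22, limma adjusted p = 0.913), lower in 1 of 3 animals.

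Esrrg (ERRgamma), a receptor of heart and other oxidative tissues, was at 1166, 1007 and 982.1 in C3H uninjured libraries and at 575.9 and 491.8 in injured ones. It fell by 0.98 on the log2 scale (SE 0.28, limma adjusted p = 0.0199), with -1.03 and -1.02 in the 2 animals. Leaving out C3H injured library 1 raised the adjusted p to 0.0603, and leaving out library 2 raised it to 0.146. In B6 it was at 526.5, 819.2 and 1141 uninjured and at 609.1, 592.3 and 630.1 injured. Those groups overlapped and the change was -0.37 (SE 0.25, limma adjusted p = 0.504).

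No PPAR gene passed the threshold in either strain. Ppara, whose product drives fatty acid oxidation in heart and liver, had counts of 1358, 1163 and 698.8 in C3H uninjured libraries and of 579.4 and 715.8 in injured ones. The groups overlapped, and the change of -0.68 (SE 0.41) had a limma adjusted p of 0.223. With the animal as a fixed term it was -0.96 and passed, with limma adjusted p = 0.0180. That fit uses only the C3H animals with both regions for this change. As a random effect the change was -0.79 and did not pass, with limma adjusted p = 0.0641. In B6 its counts were 580.9, 545.4 and 1461 uninjured and 544.7, 634.7 and 816.6 injured, a change of -0.24 (SE 0.36, limma adjusted p = 0.784).

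Ppard, the most widely expressed PPAR, was at 894.1, 783.1 and 931.4 in C3H uninjured libraries and at 610.5 and 626.8 in injured ones. The groups did not overlap, and the change was -0.49 (SE 0.22, limma adjusted p = 0.117). In B6 it was at 573.8, 477.0 and 749.4 uninjured and at 580.5, 562.5 and 658.4 injured, with a change of 0.02 (SE 0.20, limma adjusted p = 0.967).

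Pparg, the regulator of fat cells that macrophages also use, was at 209.9, 307.8 and 314.3 in C3H uninjured libraries and at 310.4 and 396.4 in injured ones. Its change of 0.36 (SE 0.30, limma adjusted p = 0.377) was the only positive one of the 10 above 0.1, and the groups overlapped. In B6 its counts were 213.0, 367.1 and 231.0 uninjured and 203.8, 245.9 and 190.8 injured, with a change of -0.30 (SE 0.27, limma adjusted p = 0.602). Lower values in the injured region were found in 3 of 3 B6 animals and higher ones in 2 of 2 C3H animals. The test of that difference between strains gave 0.67 (SE 0.40, limma adjusted p = 0.488).

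Of the RXR genes, Rxrg passed the threshold in C3H and Rxra did not. Rxrg, the form with a restricted expression that includes striated muscle, had counts of 1313, 1458 and 1951 in C3H uninjured libraries and of 470.4 and 397.1 in injured ones. Its fall of -1.84 (SE 0.23, limma adjusted p = 0.000247) was the largest of the 10, with -1.87 and -1.48 in the 2 animals. In B6 the counts were 1339, 1887 and 1568 uninjured and 1116, 983.5 and 933.5 injured. Rxrg was the only one of the 10 whose B6 groups did not overlap, as was true of 7.69% of all genes in the lower direction. The B6 change of -0.65 (SE 0.21) was seen in 3 of 3 animals and missed the threshold with a limma adjusted p of 0.364.

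Rxra, the broadly expressed RXR and the main partner of the PPARs in heart, was at 1798, 1317 and 1296 in C3H uninjured libraries and at 1369 and 1728 in injured ones. All groups overlapped, and the change was 0.08 (SE 0.30, limma adjusted p = 0.855). In B6 it was at 1039, 922.9 and 1697 uninjured and at 926.3, 1114 and 1473 injured, a change of -0.03 (SE 0.26, limma adjusted p = 0.964). These values do not show that Rxra was unaffected, only that no change exceeded the spread between libraries. The direction of the B6 value turned with TMM scaling, to 0.0093, and with quantile normalization, to 0.042.

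Tfam had counts of 977.3, 1192 and 1448 in C3H uninjured libraries and of 604.4 and 424.0 in injured ones. The groups did not overlap, and it fell by 1.23 on the log2 scale (SE 0.31, limma adjusted p = 0.0113), and did not pass when C3H injured library 2 was left out (-0.98, adjusted p = 0.128). In B6 its counts were 1136, 1850 and 979.2 uninjured and 1002, 673.2 and 664.5 injured. The B6 change of -0.73 (SE 0.28, limma adjusted p = 0.364) was lower in 3 of 3 animals, and the groups overlapped.

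In all, 6 of the 10 genes had C3H injured values below all uninjured ones, beside 29.7% of all genes. The C3H injured group holds only 2 libraries, and the 4 calls came to 2 without the second of them and to 3 without the first.

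**Figure D2:**
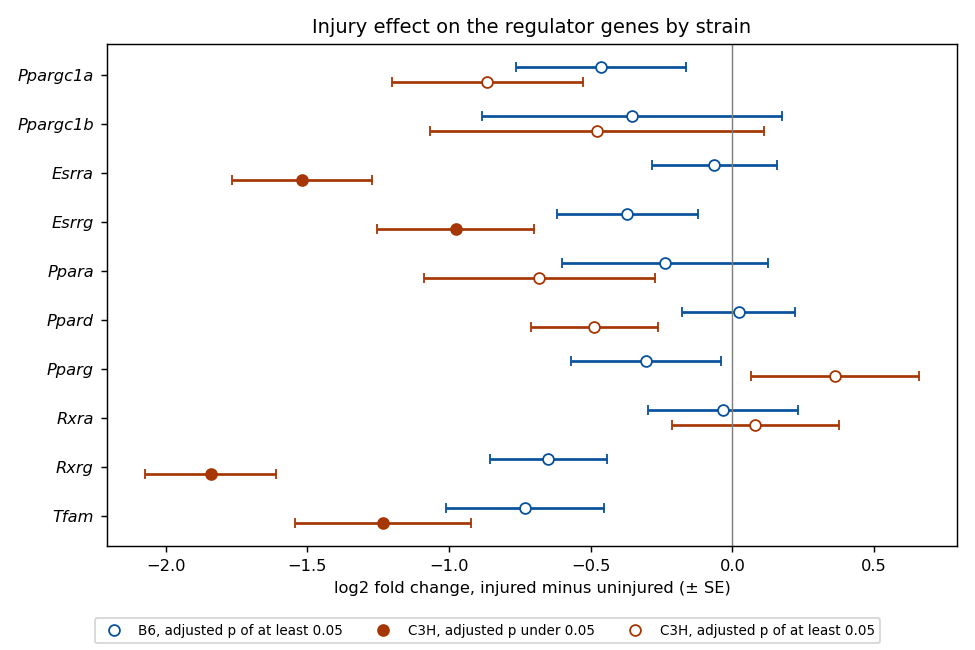
Log2 fold change of each regulator gene, injured minus uninjured (horizontal axis), with its SE as a bar, in B6 (blue) and C3H (red); filled points passed an adjusted p of 0.05. The filled points are Esrra, Esrrg, Rxrg and Tfam in C3H, from -1.84 to -0.98.

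Whether the strains differed in their response to injury was tested by the interaction term, the C3H injury change minus that of B6. The largest differences were in Esrra, at -1.45 (SE 0.33, limma adjusted p = 0.0526), and Rxrg, at -1.19 (SE 0.31, adjusted p = 0.0894), and none of the 10 passed, where 1.57% of all genes did. At an unadjusted p under 0.05 there were 2 of the 10, beside 2082 of all 14751 genes. The Esrra difference passed in other fits: with DESeq2 (-1.48, adjusted p = 0.0022), with edgeR's quasi-likelihood test (-1.52, adjusted p = 0.0476), and with the animal as a fixed or random block (adjusted p = 0.0180 and 0.00663). That of Rxrg passed with DESeq2 (-1.20, adjusted p = 0.0142) and with the animal as a random effect (-1.13, adjusted p = 0.0289), and did not with the animal as a fixed term (-1.03, adjusted p = 0.0954). Leaving out 1 library gave the Esrra difference an adjusted p of 0.0227 to 0.364. The other 8 lay between -0.61 for Esrrg and 0.67 for Pparg.

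In uninjured regions the strains were compared next. None of the 10 passed the threshold, beside 3.1% of all genes. Of the 10, 8 had higher means in C3H, while 50.5% of all genes were lower there. The median difference was 0.41 against -0.01 over all genes. Among the 35 coregulators and partner factors described below, 25 were higher too, with a median of 0.25. Ppard was the clearest of the 10, at 0.56 (SE 0.20, limma adjusted p = 0.181). All its C3H libraries were above all B6 libraries, as for 7.63% of all genes. Esrra was 0.52 higher (SE 0.22, limma adjusted p = 0.262), with groups that overlapped.

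In injured regions Esrra and Rxrg were lower in C3H than in B6, 2 of 10 beside 3.34% of all genes that were lower. Esrra, whose counts by library are given above, differed by -0.93 (SE 0.25, limma adjusted p = 0.0423). It did not pass without any 1 of the 5 injured libraries (adjusted p from 0.0579 to 0.439). Rxrg differed by -1.22 (SE 0.23, limma adjusted p = 0.0104) and did not pass when C3H injured library 2 was left out (adjusted p = 0.188). Pparg was the member whose injured values were all higher in C3H, at 0.72 (SE 0.30, limma adjusted p = 0.162). Groups that did not overlap in the higher direction were found in 24.9% of all genes. In the lower direction they were found in 4 of the 10, Esrra, Esrrg, Rxrg and Tfam, and in 24.2% of all genes.

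Related genes were also compared within each library, where the depth and the tissue piece are shared. Within a library, Rxra minus Rxrg on the log2 scale was -1.03 to 0.11 in B6 uninjured, -0.27 to 0.66 in B6 injured and -0.59 to 0.45 in C3H uninjured regions. In the C3H injured libraries it was 1.54 and 2.12, above all others. Esrra minus Esrrg was 0.87 and 1.04 there and 0.97 to 1.94 in the other libraries, so these ranges overlapped. Ppara minus Pparg was 0.85 and 0.90 in C3H injured libraries and 0.57 to 2.69 in the others, again with overlap. Ppargc1a minus Ppargc1b was 2.44 and 3.20 in C3H injured libraries and 1.96 to 4.25 in the others. These within-library differences are given with no test.

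**Figure D3:**
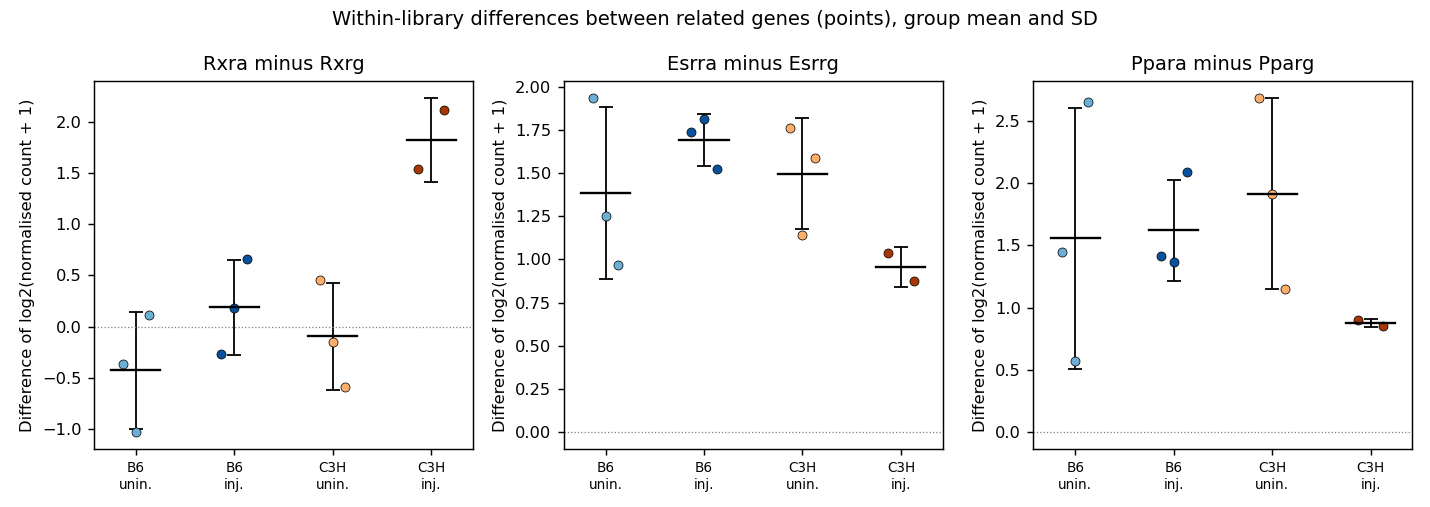
Log2 difference between related regulator genes within each library (vertical axis), with a panel for each pair and the 4 groups along the horizontal axis; points are libraries, bars the group mean and SD. Rxra minus Rxrg in C3H injured libraries (1.54 and 2.12) lies above all other libraries.

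Markers of several cell types differed between uninjured and injured regions. The summed count of the 13 cardiomyocyte markers was 1089000 to 1455000 in B6 injured and 624600 to 696300 in C3H injured regions, below the uninjured ranges given above. In C3H 11 of the 13 fell, with a median of -2.01, and in B6 0 passed, with a median of -0.72. Macrophage markers summed to 13340 to 23320 in C3H uninjured and to 85110 to 153900 in C3H injured libraries, and 10 of 11 rose. In B6 they summed to 24580 to 33710 and to 40580 to 56000, and 0 of 11 passed. Fibroblast markers summed to 48370 to 261300 and 538500 to 743200 in C3H, where 6 of 8 rose, and to 198400 to 406500 and 450200 to 460900 in B6. Of 8 endothelial markers 3 fell in C3H. The most abundant macrophage marker, Lyz2, was at 44700 and 75540 in the C3H injured libraries. The part of these markers in the changes of the regulators was not tested.

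The regulators were therefore also set against the muscle markers, by subtracting in each library the mean log2 level of the 13 cardiomyocyte markers, whose mean changed by -1.68 in C3H and -0.67 in B6. On this scale Rxrg changed by -0.16 and Esrra by 0.16 in C3H, and their groups overlapped. Thus the deepest falls among the 10 were about as deep as the mean fall of the muscle markers. Single markers changed by -2.37 (Tnni3) to -0.39 (Ryr2) in C3H, with a median of -2.005. On the scale relative to the markers, Ppargc1a changed by 0.81 in C3H, also with overlap. The other 7 were higher in injured C3H regions with no overlap: Tfam by 0.45, Esrrg by 0.70, Ppara by 1.00, Ppard by 1.19, Ppargc1b by 1.20, Rxra by 1.76 and Pparg by 2.04. This was true of 86.4% of all genes, since most genes did not fall as the muscle markers did. In B6 Esrra alone was higher with no overlap, by 0.61, beside 45.1% of all genes. Medians of the 10 were 0.91 in C3H and 0.34 in B6, against 1.69 and 0.69 over all genes. This scale has no test.

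**Figure D4:**
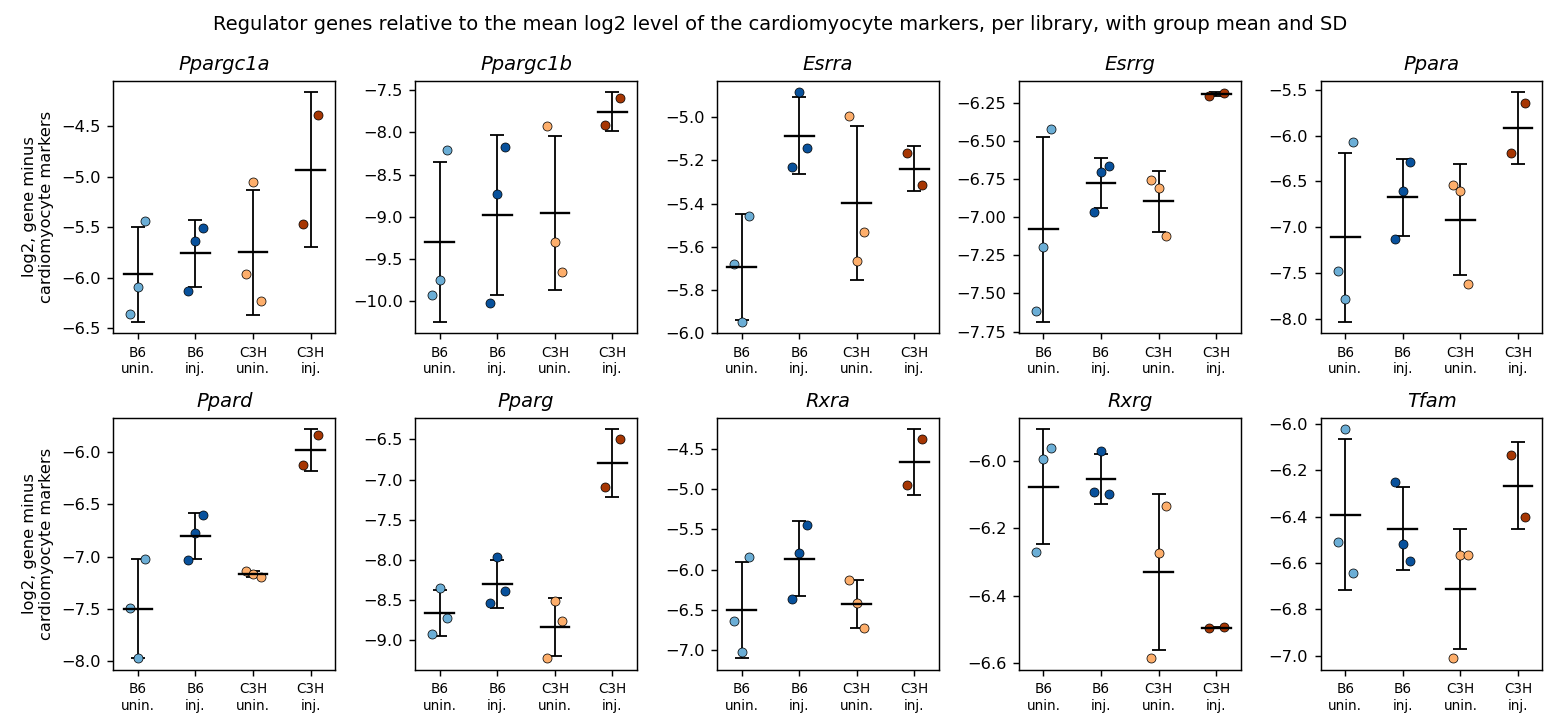
Log2 level of each regulator gene minus the mean log2 level of 13 cardiomyocyte markers in each library (vertical axis), with the 4 groups along the horizontal axis; points are libraries, bars the group mean and SD. Rxrg and Esrra of C3H overlap between uninjured and injured regions, while Pparg and Rxra lie higher in the injured libraries.

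Other genes of the network were examined in 4 lists. The coregulators and partner factors, 35 genes such as Nrf1, Gabpa, Med1 and Ncor1, had a median change of 0.03 in C3H, where 5 fell and 0 rose, a share near the 15.4% of all genes that fell, and of -0.0040 in B6, where 0 passed. The 5 were Nr0b2, Perm1, Sirt3, Esrrb and Rxrb. Perm1, a muscle protein induced by PGC-1 and ERR, went from 6001 to 7995 in C3H uninjured libraries to 2309 and 2449 in injured ones, a change of -1.48 (limma adjusted p = 0.00109). Nr0b2, a receptor that represses other nuclear receptors, fell by 1.72 on the log2 scale (limma adjusted p = 0.00558), and did not pass without C3H injured library 2 (adjusted p = 0.0513). Rxrb and Esrrb are further members of the RXR and ERR families.

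Target genes of these factors fell widely in C3H, where 15.4% of all genes fell and 15.3% rose. The 13 cardiomyocyte markers had a median of -2.005 there, and their part in the falls of the targets was not tested. All 42 genes of the list of respiratory chain and TCA targets fell in C3H, with a median of -1.75. That list also holds Slc25a3, Slc25a4, Ckmt2, Mfn1, Mfn2 and Sod2, which are of neither class. Not all 42 passed in every fit with 1 library left out. In B6 all 42 had values below 0, with a median of -0.79 and 0 calls. Cox7a1, a muscle form of a cytochrome c oxidase subunit, changed by -2.59 in C3H, and Cox8b, another such subunit, by -2.53. Among 37 fatty acid targets of the PPARs 23 fell and 3 rose in C3H, with a median of -1.38, and in B6 0 passed, with a median of -0.53. Fabp3, the fatty acid carrier of heart muscle, went from 25020 to 48160 in uninjured to 4905 and 9790 in injured C3H libraries, a change of -2.32 (limma adjusted p = 0.00158). Eci1, an enzyme of the oxidation of unsaturated fatty acids, changed by -2.23 (limma adjusted p = 0.000812).

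The 3 PPAR targets that rose in C3H were Plin2, Ucp2 and Cpt1a. Plin2, the coat protein of lipid droplets, went from 1126 to 1492 in uninjured to 4815 and 6418 in injured C3H libraries, a change of 2.16 (limma adjusted p = 7.75e-05). Ucp2, an uncoupling protein that macrophages also express, changed by 1.81 (limma adjusted p = 0.00208). Cpt1a, the liver form of the enzyme that admits fatty acids to mitochondria, rose by 1.09, close to the threshold (limma adjusted p = 0.0452). Most macrophage and fibroblast markers rose in C3H too, as given above. Their part in the rise of these 3 genes was not tested.

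Of the 23 genes of mitochondrial DNA transcription and replication, the field of Tfam, 13 fell in C3H and 0 rose. Their median was -0.89, and 15.4% of all genes fell and 15.3% rose. Mterf2, a mitochondrial transcription factor, changed by -1.85 (limma adjusted p = 0.00151), and Lrpprc, which stabilises mitochondrial messenger RNA, by -1.40 (adjusted p = 0.00357). In B6 0 of the 23 passed, with a median of -0.44. The genes with the smallest p in B6 were Nr2f2 (0.53), Slc25a20 (-0.82), Ndufa8 (-0.99) and Peo1 (-0.72), 1 from each list, with a limma adjusted p of 0.364 each. Counts in C3H rested in part on injured library 2. Without it, fewer PPAR targets and fewer genes of the list for mitochondrial DNA transcription and replication passed as lower. Without injured library 1, 3 coregulators fell, and without any 1 of the other C3H libraries 4 did. With the animal as a fixed or random block, 8 or 9 coregulators fell and 1 or 2 rose.

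**Figure D5:**
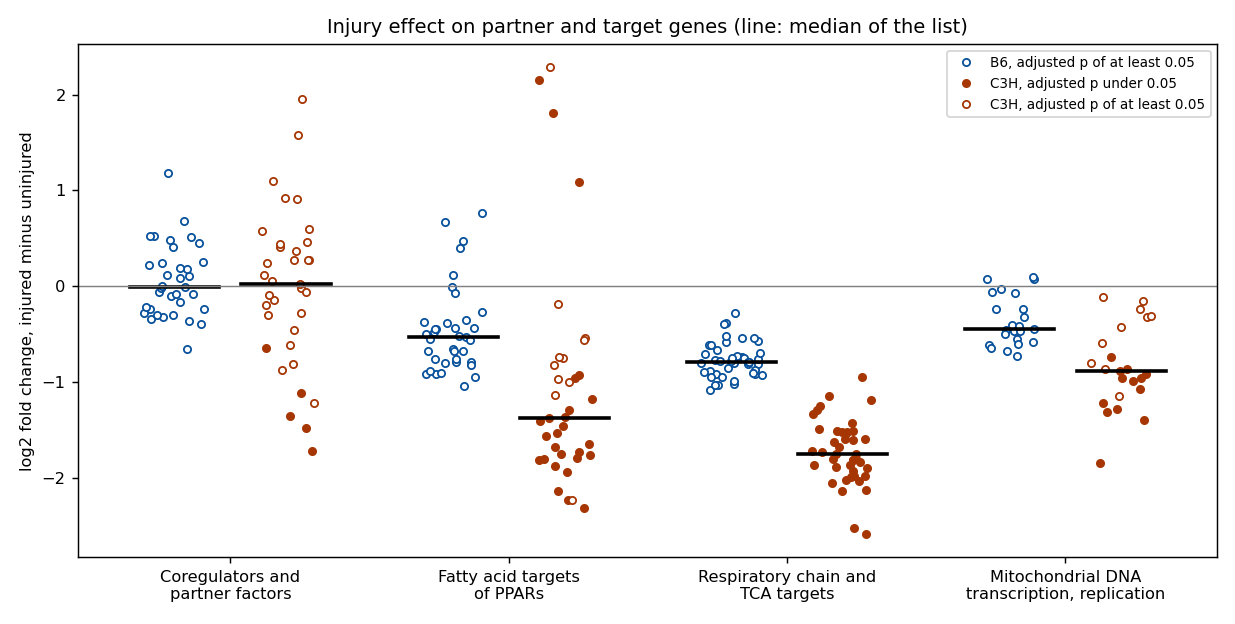
Injury effects (log2 fold change) on the vertical axis for the genes of the 4 lists along the horizontal axis, in B6 (blue) and C3H (red); each point is a gene, filled where its adjusted p was under 0.05, and the line is the list's median. The list of respiratory chain and TCA targets lies lowest, with medians of -0.79 in B6 and -1.75 in C3H.

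Across the 11 libraries, the levels of the 10 genes followed each other to different degrees. The highest Pearson correlations of log2 levels were 0.92 for Rxrg with Tfam and 0.86 for Ppargc1b with Rxra, followed by 0.83 for Ppargc1b with Ppara and 0.81 for Esrra with Rxrg. Rxra with Tfam had -0.50. The libraries share their group and strain, so these values are descriptions only, with n = 11.

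Among 12014 genes with a mean of at least 50, those whose levels were most like each regulator were found in the same way. For Rxrg they were Immt, a protein of the mitochondrial cristae, and Fam174b, both with r of 0.99, and for Tfam they were Nudt19 and Arpp19, also 0.99. Esrra was followed by Tmem161a and Atg4d (0.96 each), and Esrrg by Fitm2 (0.98) and Pdk1 (0.97), a kinase of pyruvate dehydrogenase. For Ppargc1a these were Scara5 and Pkp4 (0.98 each). Ppargc1b was most like Ryr2 (0.98), the calcium release channel of heart muscle, and Kif13a (0.96). Ppara was most like Ablim1 (0.96) and Gpd1 (0.94), and Ppard was most like Acad10 and Abcb6 (0.96 each). For Rxra, Tnrc6b had 0.97. Pparg had the weakest match, with 3110043O21Rik at 0.92 and Atp6v1c1 at 0.91.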

How the data were processed

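RNA sequencing was measured in 11 libraries from 6 mice. Per the submitters' processing notes, reads were aligned to mouse build mm9 with TopHat2 2.0.11, counted with HTSeq 0.6.1 and normalised with DESeq. The sources used here do not give annotation, strandedness or filters. The values the authors deposited are a signal: reads per gene over a size factor for the library. Division by the smallest step gave whole reads (100% of values, tolerance 1e-06), which entered the count tests made as alternatives. Build mm9 is of the B6 strain, so C3H reads over variants can be undercounted in comparisons between strains.

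Values were analysed as log2(normalised count + 1), a scale on which low counts have smaller changes. The filter was 10 or more in 2 or more libraries, met by 14751 of 15274 genes. A model of 4 group means was fitted over the 11 libraries with limma 3.58.1 in R 4.3.3 (mean-variance trend, 7 residual degrees of freedom). Two-sided p-values were adjusted by Benjamini-Hochberg across the 14751 genes, at a threshold of 0.05. The fit was also run on simulated data without effects of the animal, so that run does not show its error rate in these libraries. Alternatives were pseudocounts of 0.5 and 10, no filter, TMM scaling, quantile normalization, edgeR 4.0.16, DESeq2 1.42.0, only the groups compared, the animal as a fixed or random block, and leaving out each library.

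The labels name the mouse of each region, so 5 animals gave both. The correlation of residuals between an animal's regions was 0.276, -0.0140 and 0.524 for the B6 animals, and 0.305 and 0.575 for those of C3H. The main fit took both regions of an animal as independent, so its p-values do not use this pairing. They set each change against the spread between these libraries.

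Members and lists were chosen with earlier results of these data known. All 137 pathway symbols were matched, 2 by a RefSeq synonym. Of 55 marker symbols 49 were matched and the other 6 were not analysed here. From each pathway list, the genes named per injury comparison are the 2 with the largest change in each direction past the threshold. Where none passed, it is the gene with the lowest p. Genes past the threshold for the strain difference of the injury effect were named by the same rule. The most abundant gene of each marker list was chosen too, and of these genes only Lyz2 is given with its levels. For each regulator the 2 genes with the highest Pearson correlation were taken, among those with a mean of at least 50. Of these, 1 is not reported here. Other list genes, and the levels relative to cardiomyocyte markers, were chosen after their values were seen. Promoter windows come from RefSeq's GRCm38.p6 and exons from GENCODE M21, so no mm9 coordinates are given.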

Additional observations from a re-analysis of the deposited data

Results flagged for a closer look

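The injury change differed between the strains, by the interaction test, in 3 of the named genes, Plin2, Mlycd and Lyz2. Passing this same test was a ground for naming Plin2 and Mlycd. Their number can therefore not be set against the 1.57% of all genes that passed. For Plin2, the lipid droplet coat protein, the C3H change exceeded that of B6 by 2.16 log2 units (limma adjusted p = 0.00539), with counts of 4815 and 6418 in C3H injured libraries and 1126 to 2107 in all uninjured ones. It did not pass without C3H injured library 2 (adjusted p = 0.0661). For Mlycd, which breaks down malonyl-CoA, the difference was -1.24 (limma adjusted p = 0.0469), with 718.7 and 740.2 in C3H injured and 1564 to 1912 in B6 injured libraries. Mlycd still passed when B6 uninjured library 2 was left out (adjusted p = 0.0452), and leaving out any other library ended the call, with adjusted p up to 0.279. For Lyz2, a macrophage marker, it was 2.52 (limma adjusted p = 0.0162), with 44700 and 75540 in C3H injured and 15410 to 21200 in B6 injured libraries. It did not pass without B6 uninjured library 1 (adjusted p = 0.0562), C3H uninjured library 3 (0.0526) or C3H injured library 2 (0.154). Strain and sex cannot be told apart in these differences.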

How the results depend on the processing

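With 2 C3H injured libraries, 1 library can decide a call, and gene changes near the spread cannot be resolved. Apart from 1 point of design, the cause was not tested where a value changed. In the fixed block the C3H injury change rests only on the 2 animals with both regions, so uninjured library 3 adds nothing to it. For Rxra in C3H this fit gave -0.001, as did leaving that library out. The paired fits, with the animal as a fixed or random block, called 20 or 16 genes in B6 (2 without the block) and 491 or 777 for the strain difference of the injury effect (231 without), with 1 or 2 regulators for the latter (0 without). No fixed block could be fitted for comparisons between strains. Beyond the calls named in the report, the block changed no call of a regulator. DESeq2 called 45 genes in B6, 722 for the strain difference of the injury effect (2 of them regulators), 916 between strains in uninjured (458 with limma) and 2014 in injured regions (1042 with limma). With only the groups compared, 191 were called in uninjured regions. For the strain difference of the injury effect, a pseudocount of 10, TMM scaling and edgeR each called 1 regulator and quantile normalization called 2. In C3H, all of these settings stayed within 1.5 times the 4527 genes called.

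Leaving out 1 library gave 1 to 2 genes in B6, 1708 to 4639 in C3H, 10 to 272 for the strain difference of the injury effect, 213 to 788 in uninjured and 101 to 871 in injured regions. For the regulators it gave 0 to 0, 2 to 4, 0 to 1, 0 to 0 and 0 to 1, the last against 2 with all libraries. The lowest C3H count and that of the strain difference were without C3H injured library 2.

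Quantile normalization, which moved the median C3H change of all genes from 0.01 to -0.11, turned Esrra (0.084), Rxra (0.042) and Myh6 (0.0085) in B6, Cdh5 (0.20) and Acta1 (0.095) in C3H, and Ppargc1a (-0.018) and Ppard (-0.020) between injured regions. TMM turned Rxra in B6 (0.0093) and Rxrg between uninjured regions (0.012), the last also with edgeR (0.020). DESeq2 turned Ppard in B6 (-0.0037). The fixed block turned Rxra in C3H (-0.001) and the random block Ppargc1a between injured regions (-0.025).

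Leaving out 1 library turned further signs, with these ranges. In B6 they were -0.72 to 0.13 for Ppargc1b, -0.49 to 0.22 for Ppara, -0.13 to 0.20 for Ppard and -0.21 to 0.23 for Rxra. In C3H they were -0.76 to 0.047 for Ppargc1b, -0.086 to 0.25 for Rxra, -0.42 to 0.19 for Cdh5 and -0.98 to 0.084 for Acta1. For the strain difference of the injury effect they were -0.82 to 0.019 for Ppargc1a, -0.60 to 0.40 for Ppargc1b, -0.15 to 0.29 for Rxra and -0.65 to 0.065 for Lipe. Between uninjured regions they were -0.094 to 0.30 for Pparg, -0.19 to 0.098 for Rxrg and -0.28 to 0.17 for Tfam. Between injured regions they were -0.38 to 0.46 for Ppargc1a and -0.18 to 0.13 for Ppara.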
